A study of Mus musculus with 4 samples.

Results

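A set of 10 genes that mark or drive a mesenchymal cell state were followed in GC-1 cells: the transcription factor genes Snai1, Snai2, Twist1, Twist2, Zeb1 and Zeb2, and the marker genes Vim, Cdh2, Cdh11 and Fn1. They were chosen by gene name among the non-control probes of the array, which gave 10 genes of 37074 gene names and 24 probes of 56605. The cells were GC-1, an established mouse spermatogonial line, and the arrays were one-colour Agilent mouse arrays of 60-base probes. Empty vector cells (2 arrays) received the plasmid without an insert. Hdac6 vector cells (2 arrays) received murine Hdac6, a deacetylase of tubulin and other cytoplasmic proteins, under the CMV promoter with a myc/DDK tag. Both groups were harvested 48 h after transfection and share the line, the medium and the transfection. The sources used here do not give the share of cells that took up plasmid. The comparison asks what the Hdac6 vector does to the RNA of these genes.

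Epithelial-mesenchymal transition is the programme by which cells lose epithelial junctions and gain motility. Snail, Slug and the ZEB proteins are zinc finger repressors that bind E-boxes in epithelial promoters, and Twist proteins are basic helix-loop-helix factors that pair with E proteins. Vimentin, N-cadherin, cadherin-11 and fibronectin are products by which the mesenchymal state is usually recognised. In the testis, vimentin is a well known filament of Sertoli cells, and N-cadherin joins Sertoli cells to germ cells.

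Levels are log2 processed signal minus the 75th percentile of that array, so a level of 0 is the signal at that percentile. Levels of different probes are not read as relative RNA amounts. They serve to rank the probes of a gene, and its brightest tested probe stands for it. A probe counts as detected where the scanner software calls it well above background. Of the 24 probes, 18 were detected on all 4 arrays, 4 on some and 2 on none, and 0 were saturated. A probe was tested if detected on both arrays of at least 1 group, which kept 20 probes and at least 1 for each of the 10 genes. In the array as a whole, 66.4% and 65.1% of spots were detected in empty vector cells, against 64.3% and 61.0% in Hdac6 vector cells. The nearest pair of arrays was empty vector 2 with Hdac6 vector 1, with 1.22% of 35206 probes at least 2-fold apart, against 5.34% to 7.67% for the other pairs, which include both pairs of replicates. Whether arrays were exchanged cannot be checked from the labels, and every difference here takes them as labelled. The 1 Hdac6 probe read 3.31 and 2.83 in empty vector cells, against 2.62 and 3.24 in Hdac6 vector cells, so it did not show the labelled overexpression. The sources used here do not say whether it reads the vector's transcript.

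All 10 genes were thus expressed in GC-1 cells in both groups, and none passed the test for a difference. With limma and Benjamini-Hochberg adjustment over all 35206 tested probes, 0 of the 20 tested member probes had an adjusted p under 0.05, where 0.0114% of all tested probes did. At an unadjusted p under 0.05 the count was also 0 of 20, against 1.83% of all tested probes. The groups did not overlap, with both Hdac6 vector arrays higher, for 0 of the 20 probes, against 13.1% of all tested probes. They did not overlap in the lower direction for 2 of 20, which is 10% against 11.9%. The share of lower probes lay near that of the whole array. No label says that replicates came from separate cultures. The p-values therefore reflect the spread between these 4 samples alone, which may be technical. In bulk RNA, fewer cells expressing a gene and less RNA per cell cannot be told apart.

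**Figure D1:**
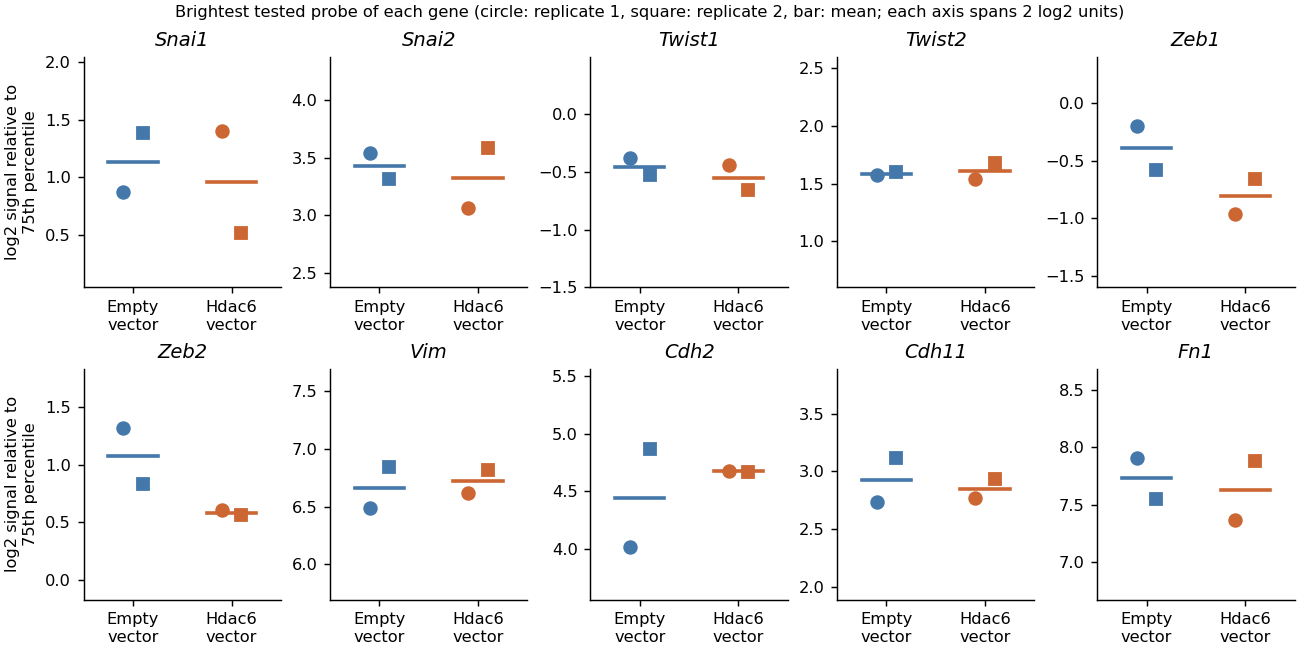
Level (log2 signal minus the 75th percentile of the array) of the brightest tested probe of each gene, with 1 point per array (circle, replicate 1; square, replicate 2) and a bar at the group mean of 2 arrays. Each panel spans 2 log2 units. The groups overlap in every panel except Zeb1 and Zeb2, where both Hdac6 vector arrays lie below both empty vector arrays.

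Snai1 encodes Snail, the founding E-box repressor of the programme and a very short-lived protein. Its 1 probe (chromosome 2, 167368073 to 167368132, plus strand; probe positions here and below are those of the files, build mm9) read 0.87 and 1.39 in empty vector cells, against 1.40 and 0.52 in Hdac6 vector cells. The Hdac6 vector arrays held both the highest and the lowest value, so the groups overlapped. The ratio was 0.888-fold (95% interval 0.525 to 1.5, from limma with n = 2 in each group, adjusted p = 1.00). The gap of 0.88 between the Hdac6 vector arrays exceeded that of 91.5% of tested probes, so Snai1 was among the less repeatable probes there.

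Snail is known to bind an E-box in its own promoter. The 250 bases upstream of the Snai1 start are shown with those of Epcam, which encodes an epithelial adhesion molecule, so that such E-boxes can be seen. Sequences are from RefSeq (GRCm38.p6), and capitals mark the E-box CAGGTG or CACCTG, which are the 2 strands of one motif.
Snai1, chr2:167537945-167538194, plus strand: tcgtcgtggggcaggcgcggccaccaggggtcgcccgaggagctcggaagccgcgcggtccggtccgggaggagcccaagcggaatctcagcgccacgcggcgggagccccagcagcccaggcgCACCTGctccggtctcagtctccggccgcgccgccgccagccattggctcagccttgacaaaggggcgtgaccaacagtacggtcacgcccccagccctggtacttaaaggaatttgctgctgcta
Epcam, chr17:87635729-87635978, plus strand: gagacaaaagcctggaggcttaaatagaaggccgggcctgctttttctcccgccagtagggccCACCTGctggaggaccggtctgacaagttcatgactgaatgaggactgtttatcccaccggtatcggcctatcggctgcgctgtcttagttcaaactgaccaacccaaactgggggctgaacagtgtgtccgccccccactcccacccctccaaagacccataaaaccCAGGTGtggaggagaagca
The Snai1 window holds 1 E-box, which starts 126 bases upstream, and the Epcam window holds 2, at 187 and 19 bases. Of 32851 promoter windows of this length 17.2% hold the motif. The table has 8 windows for 5 of the 10 genes, and 1 of the 8 holds it. A match is a description of letters and shows no binding. Epcam was detected on 1 of the 4 arrays and was not tested.

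Snai2 encodes Slug, the close relative of Snail. Its 1 probe (chromosome 16, 14709361 to 14709420, plus strand) read 3.54 and 3.31 in empty vector cells, against 3.06 and 3.58 in Hdac6 vector cells. The empty vector values lay inside the Hdac6 vector range. The ratio was 0.932-fold (0.62 to 1.40, limma adjusted p = 1.00).

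Twist1 and Twist2 encode basic helix-loop-helix factors of mesoderm. The 1 Twist1 probe (chromosome 12, 34644411 to 34644470, plus strand) read -0.38 and -0.53 in empty vector cells, against -0.44 and -0.66 in Hdac6 vector cells, a ratio of 0.941-fold (0.623 to 1.42). The 1 Twist2 probe (chromosome 1, 93744519 to 93744577, plus strand) read 1.57 and 1.60 against 1.54 and 1.68, a ratio of 1.02-fold (0.71 to 1.47). Both pairs of groups overlapped, and both adjusted p were 1.00 in limma. Twist2 had the narrowest spread of the 10 genes, 0.14 over the 4 arrays.

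Zeb1 and Zeb2 encode the large zinc finger homeobox repressors, and theirs were the probes with non-overlapping groups. The brightest Zeb1 probe (chromosome 18, 5774008 to 5774067, plus strand) read -0.20 and -0.58 in empty vector cells, against -0.96 and -0.66 in Hdac6 vector cells. Both Hdac6 vector arrays were lower, the nearest by 0.08. The ratio was 0.75-fold (0.482 to 1.17, limma adjusted p = 1.00).

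The other Zeb1 probes were dim. The second (5766449 to 5766508), 7.56 kb upstream of the brightest, read -7.10 and -3.55 in empty vector cells, against -2.66 and -4.66 in Hdac6 vector cells, and on empty vector 1 it was not detected. Its log2 difference was 1.67 (95% interval -0.62 to 3.95), opposite in sign to the brightest probe, with a limma adjusted p of 1.00. Without empty vector 2 it reached 3.44 (limma adjusted p = 1.86e-06), where the undetected empty vector 1 stood alone for its group and is assumed to vary like the other. Another probe, 67.2 kb upstream, was detected on empty vector 2 and Hdac6 vector 1, and the last, 132 kb upstream, on none. Neither of these was tested, so the lower reading of Zeb1 rests on 1 probe.

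The brightest Zeb2 probe (chromosome 2, 44842774 to 44842833, minus strand) read 1.32 and 0.83 in empty vector cells, against 0.61 and 0.56 in Hdac6 vector cells. Both Hdac6 vector arrays were below both empty vector arrays, and the nearest values were 0.22 apart. At 0.715-fold (0.474 to 1.08) it had the lowest ratio among the brightest probes, and its unadjusted p of 0.098 was the smallest of the 20 (limma adjusted p = 1.00). Leaving out 1 array at a time put the log2 difference between -0.73 and -0.24.

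At the other tested Zeb2 probes the groups overlapped in each case, with log2 differences of 0.19, -0.00, -0.11, 0.27 and -0.48. The nearest in position, 4.03 kb upstream of the most 3′ probe, read -1.98 and -1.83 in empty vector cells, against -1.32 and -2.10 in Hdac6 vector cells. The most 3′ probe itself read -4.02 and -4.02 against -4.04 and -4.01. The probe at -0.48 was not detected on Hdac6 vector 2, and a seventh probe, 126 kb upstream, was detected on no array.

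**Figure D2:**
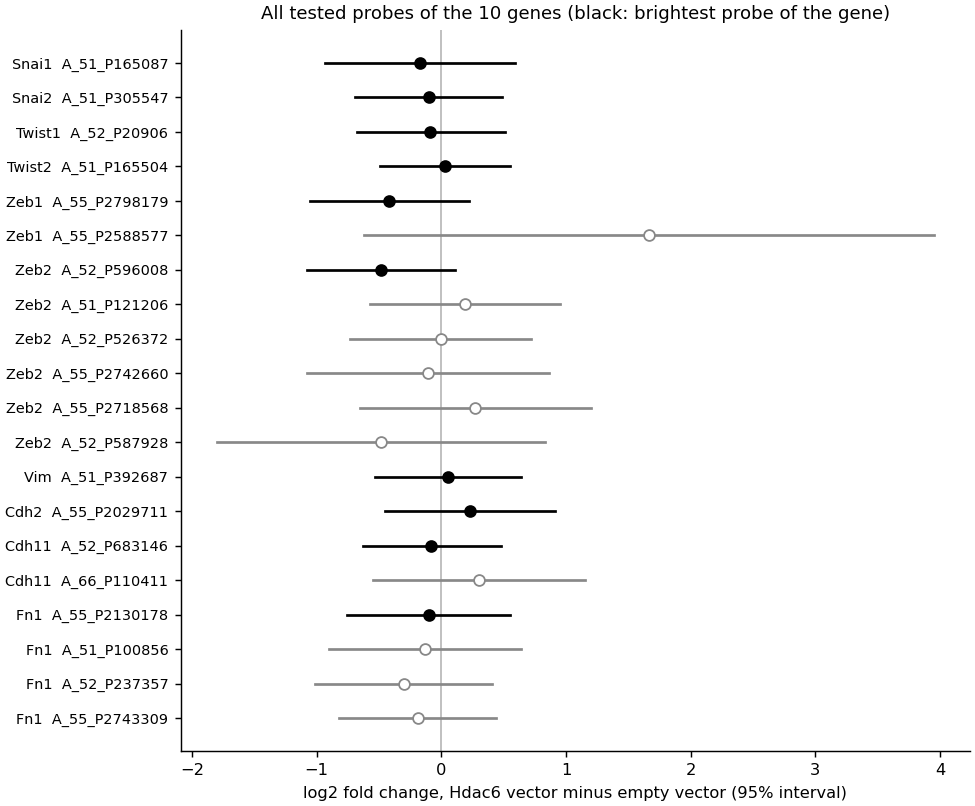
Log2 fold change, Hdac6 vector minus empty vector, with its 95% interval from limma for each of the 20 tested probes (2 arrays per group), filled where the probe is the brightest of its gene. Every interval includes 0, and the second Zeb1 probe has the widest, from -0.62 to 3.95.

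Vim encodes vimentin, the intermediate filament protein of mesenchymal cells. Its 1 probe (chromosome 2, 13504232 to 13504291, plus strand) read 6.49 and 6.84 in empty vector cells, against 6.62 and 6.82 in Hdac6 vector cells. The Hdac6 vector values lay inside the empty vector range, at 1.04-fold (0.693 to 1.56, limma adjusted p = 1.00).

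Cdh2 encodes N-cadherin, the adhesion molecule that mesenchymal cells carry in place of E-cadherin. The brighter of 2 probes (chromosome 18, 16747559 to 16747618, minus strand) read 4.02 and 4.87 in empty vector cells, against 4.68 and 4.67 in Hdac6 vector cells. The spread lay within the empty vector pair, whose gap of 0.85 exceeded that of 90.4% of tested probes. The ratio of 1.17-fold (0.731 to 1.88, limma adjusted p = 1.00) was the highest among the brightest probes. Without empty vector 1 its log2 difference was -0.19. The dim probe, 182 kb upstream, was detected on empty vector 2 and Hdac6 vector 1 and was not tested.

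Cdh11 encodes cadherin-11, the cadherin of osteoblasts and other mesenchymal cells. The brighter of its 2 probes (chromosome 8, 105191906 to 105191965, minus strand) read 2.73 and 3.12 in empty vector cells, against 2.77 and 2.93 in Hdac6 vector cells, a ratio of 0.949-fold (0.646 to 1.39). The dimmer (105203636 to 105203695), 11.7 kb upstream, read -1.40 and -0.39 against -0.32 and -0.86, a log2 difference of 0.30 (-0.55 to 1.15). The groups overlapped at both probes, the signs of the differences were opposite, and both limma adjusted p were 1.00.

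Fn1 encodes fibronectin, the matrix glycoprotein bound by integrins. The brightest of 4 probes (chromosome 1, 71632116 to 71632175, minus strand) read 7.91 and 7.55 in empty vector cells, against 7.37 and 7.88 in Hdac6 vector cells, a ratio of 0.93-fold (0.59 to 1.47, limma adjusted p = 1.00). The groups overlapped here and at the other 3 probes. At 18.6 kb upstream the values were 2.66 and 1.76 against 2.03 and 1.79, a log2 difference of -0.30. The remaining 2 probes are shown because their 60 bases cover 2238 and 1107 bases of genome, so each crosses a splice junction and reads spliced Fn1 RNA. Both are printed in lower case, 5′ to 3′ on the minus strand, as the files give them for build mm9.
Fn1, chr1:71637422-71639659: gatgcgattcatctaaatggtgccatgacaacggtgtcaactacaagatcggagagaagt
Fn1, chr1:71694694-71695800: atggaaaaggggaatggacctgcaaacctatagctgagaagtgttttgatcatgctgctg
The former has 2 reading frames without a stop and the latter 1. The former, 5.31 kb upstream of the brightest probe, read 4.23 and 3.17 against 3.41 and 3.72, a log2 difference of -0.13. The latter, 62.6 kb upstream, read -1.10 and -1.18 against -1.17 and -1.49, a difference of -0.19. Empty vector 1 was the highest array at all 4 Fn1 probes.

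Over the brightest probes, 3 genes were higher and 7 lower with the Hdac6 vector, but the sign of Snai2, Twist1, Cdh11 and Fn1 turned with spike-in scaling, that of Twist2 and Vim with median scaling or normexp background correction, and that of Vim with quantile normalization. Their median log2 fold change was -0.09 (range -0.48 to 0.23) and became 0.01 with spike-in scaling. Over all 23469 tested genes the median was 0.00, with 50.7% higher. At the brightest probes, the upper interval limits of the 10 genes ran from 1.08-fold to 1.88-fold and the lower limits from 0.474-fold to 0.731-fold. A 2-fold rise lay outside each of these intervals, and a 2-fold fall lay inside that of Zeb1 and Zeb2 only. Intervals of dimmer tested probes held a 2-fold rise for Zeb1 (0.652 to 15.4), Zeb2 (0.636 to 2.3) and Cdh11 (0.685 to 2.22). They held a 2-fold fall for Zeb2 (0.471 to 1.82 and 0.287 to 1.78) and Fn1 (0.498 to 1.33).

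The authors' value table, with 1 row per gene name, reads some of these genes differently from the probes. On its scale, all 40 values of the 10 genes were within 0.01 of the mean of the gene's detected probes on that array. Its Cdh2 row read 4.29 and 0.17 in empty vector cells, against 0.10 and 4.77 in Hdac6 vector cells, a range of 4.67. On empty vector 2 and Hdac6 vector 1 the dim probe was detected and entered the mean, and on the other arrays it did not. The Zeb1 row read 0.07 and -2.74 against -2.45 and -2.55, since only the brightest probe was detected on empty vector 1. Of the 10 values where some probe was undetected, 10 matched the mean of detected probes and 0 the mean of all probes.

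**Figure D3:**
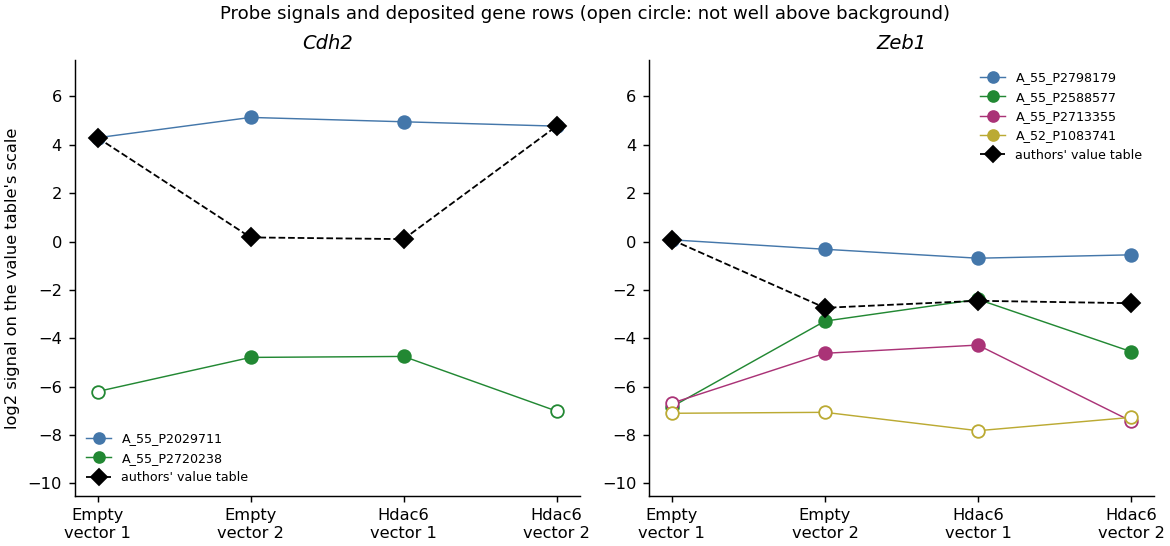
Log2 signal of each Cdh2 and Zeb1 probe on the value table's scale, by array (circles, filled where detected), with the authors' row for the gene (diamonds, dashed line). The Cdh2 row falls from 4.29 to 0.17 between the empty vector arrays where the dim probe is detected, while the bright probe goes from 4.29 to 5.13.

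The other genes of the pathway were taken from 10 lists, with 173 distinct tested genes. Of these 0 changed by the limma adjusted p and 5 (2.89%) had an unadjusted p under 0.05, against 1.83% of all tested probes. Over all 23469 tested genes 50.7% were higher and 49.3% lower, with a median of 0.00. Of the 173 list genes 69 were higher and 104 lower, with a median of -0.05. The groups did not overlap for 13 in the higher direction (7.51%, against 13.1% of all probes) and 28 in the lower (16.2%, against 11.9%). The shares of the lists count 1 probe per gene, the brightest tested, and the shares beside them count every tested probe. Other probes of the list genes are not given, and Ltbp1 and Acta2 have 4 probes each. The sign of a list's median was the same under all scalings for 3 of the 10 lists, lower for the corepressors and the TGF-beta genes and higher for the E proteins and Id genes. For the other 7 it turned under at least 1 scaling.

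Among other transcription factors of the transition, 17 of 23 genes were tested and 0 changed, with a median of -0.07. Prrx1, a homeobox factor of mesenchyme, was at 1.14-fold and Hmga2, a chromatin architectural factor, at 1.09-fold. Snai3 was detected on 1 array and Foxc2 on none.

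The corepressors and stability regulators of Snail, Slug and ZEB were all tested, 26 of 26, with 6 higher, 20 lower, 0 changed and a median of -0.14. Kdm1a, the histone demethylase that Snail recruits, was at 0.842-fold, and Ctbp1, a ZEB corepressor, at 0.992-fold. Gsk3b and Btrc, the kinase and ubiquitin ligase subunit that mark Snail for degradation, were at 1.02-fold and 0.865-fold. Ajuba, an adaptor of Snail, read -0.17 and 0.26 in empty vector cells, against -0.72 and -0.52 in Hdac6 vector cells, at 0.631-fold (0.411 to 0.97, limma adjusted p = 1.00).

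The list of E proteins and Id inhibitors around Twist also holds Hand1, Hand2, Tcf15 and Msc. Of its 11 genes 8 were tested and 0 changed, with 6 higher, 2 lower and a median of 0.10. Those not tested were Hand1, Tcf15 and Msc. Id3, an inhibitor of E proteins, read 3.46 and 3.40 in empty vector cells, against 3.81 and 3.88 in Hdac6 vector cells, at 1.34-fold (0.941 to 1.90, limma adjusted p = 1.00). Id1 was at 1.09-fold and the E proteins Tcf3 and Tcf12 at 1.17-fold and 1.00-fold.

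TGF-beta, the best known inducer of these factors, acts through Smads. All 18 genes of that list were tested, with 5 higher, 13 lower, 0 changed and a median of -0.16. Tgfb1, Tgfbr2 and Smad3, its ligand, receptor and effector, were at 0.903-fold, 0.971-fold and 0.892-fold. Ltbp1, which stores latent TGF-beta in the matrix, read 0.86 and 0.10 in empty vector cells, against -0.20 and -0.65 in Hdac6 vector cells, at 0.535-fold (0.323 to 0.886, limma adjusted p = 1.00).

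The cadherins other than Cdh2 and Cdh11 had 7 of 21 genes tested and 10 detected on no array, and 0 changed. Cdh1, the E-cadherin gene and a classical target of these repressors, was among those 10. Cdh3, P-cadherin, was at 1.01-fold. Of the catenins and adaptors that bind cadherin tails, 10 of 12 were tested and 0 changed, with Ctnnb1 at 0.966-fold, Ctnna1 at 1.00-fold and Ctnnd1 at 0.964-fold.

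The fibronectin receptors and matrix partners had 19 of 21 genes tested and 0 changed, with a median of -0.06. Itga5 and Itgav, the fibronectin-binding integrin chains, were at 0.817-fold and 0.787-fold, their partner Itgb1 at 0.887-fold and the syndecan Sdc4 at 1.06-fold. Of the intermediate filaments and linkers around vimentin, all 18 were tested and 0 changed, with a median of 0.03. Nes was at 0.921-fold, the keratins Krt8 and Krt18 at 1.52-fold and 1.05-fold, and the linker Plec at 0.976-fold.

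Other mesenchymal markers split evenly, 15 higher and 14 lower of 29 tested, with 0 changed and a median of 0.01. Acta2, smooth muscle actin, read 3.06 and 3.12 in empty vector cells, against 3.58 and 3.73 in Hdac6 vector cells, at 1.48-fold (1.04 to 2.10, limma adjusted p = 1.00). Col1a1, Sparc and Mmp2 were at 1.06-fold, 1.05-fold and 0.942-fold.

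The list of epithelial genes includes genes that these factors are known to repress, such as Cdh1. Which of its 36 genes are targets was not tested. Of the 36, 29 were tested, 10 higher and 19 lower, with 0 changed and a median of -0.05. Grhl2, an epithelial transcription factor that opposes Zeb1, read -1.99 and -2.51 in empty vector cells, against -3.80 and -4.05 in Hdac6 vector cells. It was at 0.313-fold (0.185 to 0.53, limma adjusted p = 1.00), the lowest ratio in the 10 lists. Grhl2 has 2 probes on the array, and only its brightest tested probe is given. Its log2 difference of -1.67 became -0.87 with normexp background correction. Esrp1, an epithelial splicing regulator, was at 1.12-fold. Without empty vector 2 the limma adjusted p was 0.0195 for Grhl2, 0.0319 for Krt8 and 0.0463 for Ltbp1, a setting that leaves empty vector 1 alone in its group and under which 302 probes changed over the array.

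**Figure D4:**
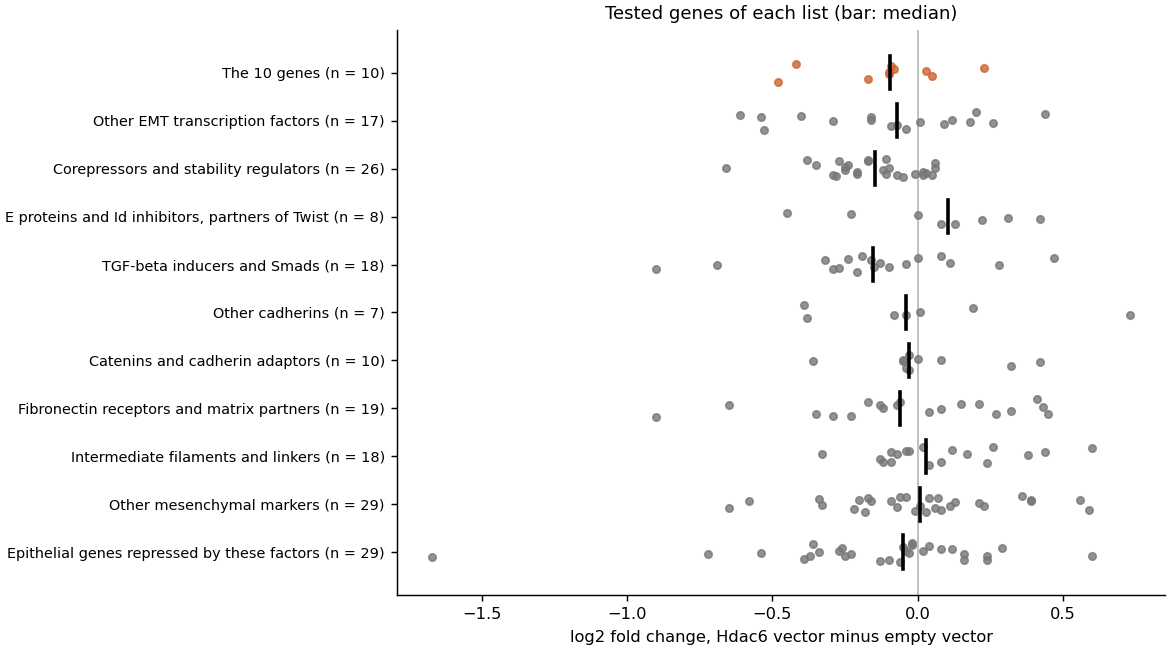
Log2 fold change, Hdac6 vector minus empty vector, of the brightest tested probe of each gene in the 10 genes and the 10 pathway lists (1 point per gene, bar at the median). The medians lie between -0.16 and 0.10, and Grhl2 is the point farthest to the left.

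The labelled cell type was set against marker genes. Of 15 spermatogonia markers 7 were detected on all 4 arrays, namely Zbtb16, Id4, Etv5, Sohlh1, Nanos3, Uchl1 and Itga6. On empty vector 1 the levels of their brightest tested probes ran from -5.68 (Sohlh1) to 5.40 (Itga6). Ret, Dazl, Kit and Thy1 were detected on none. A gene counts here if any of its probes was detected on all 4 arrays. Over the whole array, 61% to 66.4% of spots were detected on each array, a share of spots and not of genes. Of the markers of other testis cells, 7 of 10 for Sertoli cells and 8 of 8 for peritubular myoid cells were detected on all 4 arrays. For fibroblasts 5 of 8 were, and for macrophages 6 of 8. For Sertoli cells these were Sox9, Gata4, Wt1, Gdnf, Rhox5, Inhbb and Dhh, and for fibroblasts Col1a1, Col1a2, Col3a1, Pdgfrb and Dcn. For macrophages they were Cd68, Csf1r, Itgam, Ptprc, Cd14 and Lyz2. Adgre1, which defines macrophages, the fibroblast markers Lum and Thy1, and the Sertoli cell markers Amh and Cldn11 were detected on none. Of the 6 Leydig cell markers on the array, 2 were detected on all 4 arrays, and Hsd3b1 and Lhcgr on none. The part of these markers in the levels of the 10 genes was not tested.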

How the data were processed

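Gene expression was measured on 4 arrays, 2 per group, which shared a slide and a scan day. Per the file headers, the deposited scanner files hold spot intensity from Feature Extraction 11.5.1.1 (protocol GE1_1105_Oct12), with the background subtracted and no scaling between arrays. Agilent Feature Extraction is also named in the submitters' processing notes. The authors also deposited a table of log2 values, used as an alternative, and the sources used here do not say how it was made. Control and outlier-flagged spots were left out. Log2 intensity was averaged over repeated spots and the 75th percentile of each array was subtracted. Of 56605 probes, 43738 took their gene name from the RefSeq table. The model was limma 3.58.1 under R 4.3.3 (lmFit, eBayes with trend) over 35206 probes, two-sided, with 2 residual and 7.07 prior degrees of freedom, tested on simulated data.

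The 10 genes and the lists were chosen with earlier results of these data known. Named are all 10 genes with every probe, list genes marked by role, and list genes past the threshold (0 passed). Ajuba and Ltbp1 were named after their values were seen. Id3, Acta2 and Grhl2 were named by role, but are given in more detail than the other named genes of their lists. Id3 had the highest and Grhl2 the lowest log2 difference of its list, and Acta2 had an unadjusted limma p under 0.05. Alternatives were the background correction, the scaling, the filter, the trend, blocks, single arrays left out and the value table. A gene of the lists is not reported here.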

Additional observations from a re-analysis of the deposited data

How the results depend on the processing

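Over the array, 4 probes changed as reported. The count was 29 with normexp background correction, 2 with quantile normalization, 2 with no trend in the spread, 31 in the authors' value table and 0 with median scaling, where 727 probes had an unadjusted p under 0.05. Leaving out 1 array at a time gave 0 to 302 (12 without empty vector 1, 302 without empty vector 2, and 0 in limma without Hdac6 vector 1 or 2, with 1420 and 654 at an unadjusted p under 0.05). Spike-in scaling and both filters on dim probes kept the count within 1.5 times. With the replicate number as a replicate block 22 probes changed, and 0 of the 20 tested member probes did. A crossed pairing, chosen after seeing the data because same-numbered arrays deviated oppositely (correlation -0.36), gave 15 and 0. Of the 10 genes' probes, 0 changed under every setting except without empty vector 2, so the range without 1 array was 0 to 1.

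Each of the 10 genes changed sign under at least 1 setting. With normexp Twist2 was at -0.03 and Vim at -0.01 (log2). With quantile normalization Vim was at -0.01. With median scaling Twist2 was at -0.06 and Vim at -0.04. With spike-in scaling, which moved the median of all probes from 0.02 to 0.13, Snai2 was at 0.01, Twist1 at 0.02, Cdh11 at 0.03 and Fn1 at 0.00. With the mean of a gene's tested probes Zeb1 was at 0.62 and Cdh11 at 0.11. In the value table Twist2 was at -0.05, Zeb2 at 0.13, Vim at -0.03 and Cdh11 at 0.03. There the 1 Twist2 probe read 1.83 and 1.87 in empty vector cells, against 1.81 and 1.78 in Hdac6 vector cells. Its levels here were 1.57 and 1.60 against 1.54 and 1.68. The value table thus shifted Hdac6 vector 2 less than the other arrays. Without 1 array Snai1 ran from -0.61 to 0.27, Snai2 from -0.36 to 0.16, Twist1 from -0.20 to 0.02, Twist2 from -0.04 to 0.10, Vim from -0.12 to 0.23, Cdh2 from -0.19 to 0.65, Cdh11 from -0.27 to 0.12 and Fn1 from -0.36 to 0.15.

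Medians (log2) moved by more than the spread between replicates for the 10 genes with median scaling (-0.19) and spike-in scaling (0.01), and ran from -0.16 to 0.05 without 1 array. With median scaling the other transcription factors were at -0.17, TGF-beta genes at -0.25, other cadherins at -0.13, fibronectin partners at -0.15 and other mesenchymal markers at -0.08. With spike-in scaling these were at 0.03, -0.05, 0.07, 0.05 and 0.12, and with normexp other cadherins were at 0.05. Without 1 array the medians ran for the other transcription factors from -0.23 to 0.09, E proteins and Id genes from -0.17 to 0.23, TGF-beta genes from -0.28 to -0.02, fibronectin partners from -0.14 to 0.11, other mesenchymal markers from -0.06 to 0.05 and epithelial genes from -0.21 to -0.03. Krt8 ran from -0.07 to 1.27 without 1 array. Of 34 named list genes, 24 changed sign under at least 1 setting. The list medians were not run on the value table. The cause was not tested. The brightest Zeb1 and Zeb2 probes were lower under every setting that read single probes. The number of arrays limits the precision, and dim probes have the widest intervals.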

Other observations

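Zeb2os, an RNA read from the strand opposite Zeb2, has 1 probe. It read -4.85 and -5.07 in empty vector cells, against -5.37 and -5.80 in Hdac6 vector cells, and it was detected on 3 of 4 arrays. Both Hdac6 vector values were below both empty vector values, at 0.647-fold, a log2 difference of -0.63 (95% interval -1.44 to 0.18, limma adjusted p = 1.00). The brightest Zeb2 probe had the same order of groups, and at the other tested Zeb2 probes the groups overlapped. Of all tested probes, 11.9% did not overlap in the lower direction. Zeb2os was chosen after its values were seen.

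Among the markers of other cell types, Cd68, a macrophage lysosomal protein gene, was at 0.53-fold (0.312 to 0.899, limma adjusted p = 1.00). It read 4.51 and 3.53 in empty vector cells, against 3.32 and 2.89 in Hdac6 vector cells, with empty vector 1 the highest. The rest of the tested macrophage markers ran from 0.957-fold (Ptprc) to 1.1-fold (Csf1r), and their groups overlapped. Of the 6 tested, 3 were higher and 3 lower, so the fall of Cd68 was not shared by its list. Cd68 too was named after its values were seen.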
